A study of Mus musculus with 3 samples.

Results

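Sp9, a zinc finger transcription factor of developing forebrain interneurons, was mapped on chromatin of the neonatal mouse olfactory bulb by immunoprecipitation and sequencing, and the peaks described here are those that the authors named for netrin genes or netrin receptor genes. The genes are Ntn1, Ntn4, Ntng1, Ntng2, Dcc, Neo1, Unc5a, Unc5b, Unc5c and Unc5d. They were taken by name, as every row of the deposited list whose gene name equals one of these 10 symbols, whatever its score. The rule gave 24 of the 19979 listed peaks, and each of the 10 genes had at least 1. There were 2 libraries made with a homemade Sp9 antibody and 1 input library made without antibody, all from olfactory bulbs of CD1 mice at postnatal days 0 to 2, and the labels name no genotype, treatment or allele that separates them. The series asked how Sp8 and Sp9 act together in the development of olfactory bulb interneurons. The values at hand form 1 list with 1 score per peak, called shared by the authors, so no peak has a value per library, a spread between replicates or a level in the input. The numbers of reads are not in that list either, and the depth behind a score is unknown. The list measures no RNA, so the tissue label was not checked against marker genes.

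Netrins are guidance proteins related to laminins. Secreted netrins such as netrin 1 attract or repel growing axons and migrating neurons, while netrin-G proteins are tethered to the membrane and bind leucine-rich partners at synapses. Receptors of the DCC family, DCC and neogenin, mediate attraction, and UNC5 receptors, alone or together with DCC, mediate repulsion. In the olfactory bulb this family is known for its part in the migration of interneuron precursors and in the wiring of the main projection neurons.

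Sp family factors are known to bind GC boxes, so the stretch in front of the annotated gene start is shown for the 4 genes whose RefSeq window began at the outer boundary of the gene. Promoter windows of 7 of the 10 genes, all but Ntn1, Dcc and Unc5d, were matched by symbol in a RefSeq table of build GRCm38.p6. The 4 sequences are the 250 bases before the start, written 5′ to 3′ in the direction of the gene, with each GC box (GGGCGG, or CCGCCC for the other strand, overlaps counted) in capitals. Ntn4 lies at chr10:93640799-93641048 on the plus strand, Ntng2 at chr2:29248100-29248349 on the minus strand, Unc5b at chr10:60831582-60831831 on the minus strand and Unc5c at chr3:141465314-141465563 on the plus strand. These are positions of GRCm38.p6, whereas the peaks below are in mm9, and whether a peak covers any of these stretches was not tested.

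Ntn4: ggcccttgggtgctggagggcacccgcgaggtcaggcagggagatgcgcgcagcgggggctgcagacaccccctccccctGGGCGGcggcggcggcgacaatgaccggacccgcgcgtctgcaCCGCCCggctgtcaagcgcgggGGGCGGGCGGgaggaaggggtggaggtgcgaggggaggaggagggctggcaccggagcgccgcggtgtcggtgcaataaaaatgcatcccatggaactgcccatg
Ntng2: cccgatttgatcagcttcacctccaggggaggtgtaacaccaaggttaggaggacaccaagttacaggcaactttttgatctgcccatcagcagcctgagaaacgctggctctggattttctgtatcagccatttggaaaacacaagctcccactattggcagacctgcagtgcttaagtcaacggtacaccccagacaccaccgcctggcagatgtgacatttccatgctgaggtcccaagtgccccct
Unc5b: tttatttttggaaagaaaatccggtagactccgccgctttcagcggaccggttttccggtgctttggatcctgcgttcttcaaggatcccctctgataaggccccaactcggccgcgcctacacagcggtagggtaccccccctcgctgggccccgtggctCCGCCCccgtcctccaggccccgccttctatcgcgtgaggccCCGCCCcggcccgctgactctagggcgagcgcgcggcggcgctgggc
Unc5c: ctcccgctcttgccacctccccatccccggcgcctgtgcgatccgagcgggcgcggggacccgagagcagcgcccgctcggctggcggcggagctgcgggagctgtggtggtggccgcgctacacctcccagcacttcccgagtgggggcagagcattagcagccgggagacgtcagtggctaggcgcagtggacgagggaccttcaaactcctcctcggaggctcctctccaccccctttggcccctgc

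The Ntn4 stretch held 4 GC boxes, 3 in the direction of the gene and 1 opposite, between 170 and 101 bases before the start. That of Unc5b held 2, both on the other strand, 89 and 47 bases before the start. Those of Unc5c and Ntng2 held none. The GC content was 71.2% for Unc5c and 52.4% for Ntng2, against a median of 55.6% over windows of coding genes. Of the other windows, Unc5a held 5 GC boxes, and Ntng1 and Neo1 held 1 each, so 5 of 7 genes had at least 1. A GC box stood in 42.6% of 21255 windows of coding genes, in 57.3% of those of coding genes with a listed peak and in 22.8% of those without. The same 3 sets differed in base composition too, with a median GC content of 55.6%, 60.4% and 49.2%, and the part of GC content in these shares was not tested. The GT box GGGTGG stood in 4 of the 7 windows. It stood in 30.2% of coding windows and in 33.9% of those of coding genes with a listed peak. The homeodomain core TAATTA stood in 0 of 7, against 4.31% and 2.59% of the same sets, in that order. Both strands were searched for each motif.

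Across the family, 13 of the 24 peaks scored at or above 210.06, the median of all listed peaks, and 9 lay in the upper quartile of the list. Every gene had a peak, 10 of 10, where 55.4% of all 21900 coding genes had one. Of the 10 genes, 9 had an above-median peak, against 35.4% of coding genes, and 6 had a peak in the upper quartile, against 19.2%. More than 1 peak was listed for 6 genes, against 15.5% of coding genes, and 5 or more for 2 genes, against 1.28%. The family held 2.4 peaks per gene and coding genes as a whole 0.819. When each gene is represented by its highest peak, the median was 507 in the family and 273 over the 12136 coding genes with a peak. The family was picked with earlier results of these data known, so these shares are descriptions and no test was made of them.

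**Figure D1:**
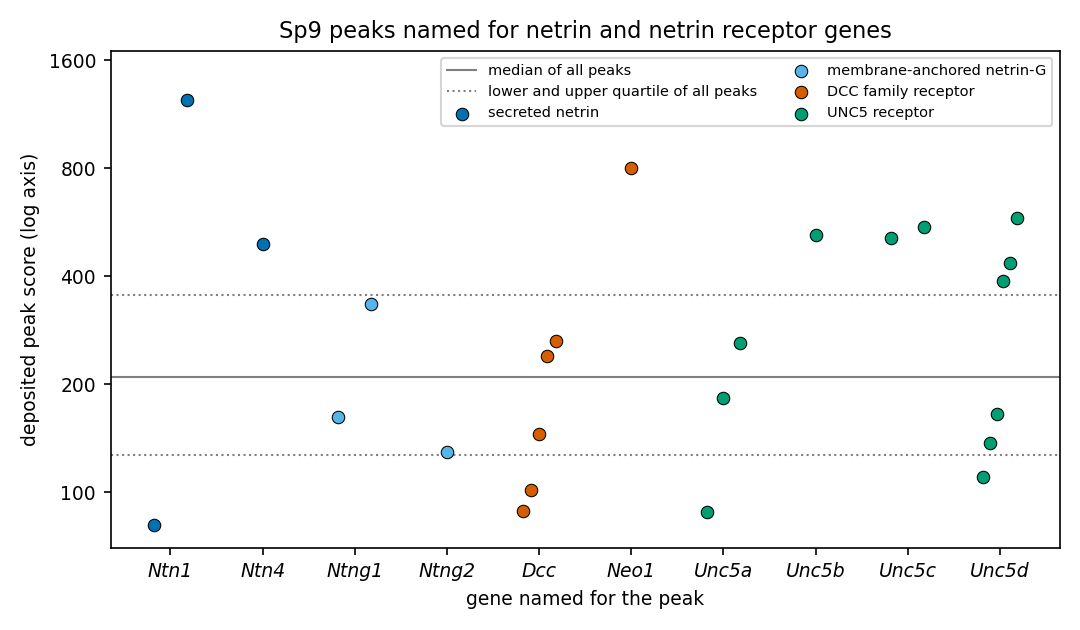
Deposited score (log axis) of each of the 24 peaks, by the gene that names it, with colours for the 4 roles and lines for the median and quartiles of all listed peaks; points of 1 gene are spread sideways only to separate them. Ntn1 holds both the highest and the lowest point of the family, and Ntng2 is the only gene with no point at or above the median.

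By highest peak the order was Ntn1, Neo1, Unc5d, Unc5c, Unc5b, Ntn4, Ntng1, Dcc, Unc5a and Ntng2. Since no score has an error, it cannot be said which neighbours in this order differ. Unc5d, Unc5c, Unc5b and Ntn4 lay close together, from 580.71 to 491.41, and Dcc and Unc5a nearly coincided at 263.66 and 261.18. Scores went with width: the Spearman correlation was 0.732 over the 24 peaks and 0.745 over all listed peaks, which share their libraries and caller.

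Among the secreted ligands, Ntn1, the gene of netrin 1, carried the strongest peak of the family. This peak, on chromosome 11 from 68198042 to 68201089 (mm9), had a score of 1241.88, rank 101 of the list. Its width of 3047 bp exceeded that of 99.5% of peaks. The other Ntn1 peak lay 11.8 kb to the right, from 68212867 to 68213569, with a score of 81.1, close to the lowest score of the list, 80.01. The higher peak thus had 15.3 times the score of the lower one, the widest contrast within any of the 10 genes. Of the 2156 coding genes with exactly 2 peaks, 99.0% had a lower highest score than Ntn1. The next listed peaks outside the pair were named Mfsd6l, 156 kb to the right, and Usp43, 462 kb to the left.

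Ntn4, the gene of netrin 4, a secreted netrin of basement membranes, had a single peak, which scored 491.41 and covered 93103238 to 93105103 of chromosome 10. It scored above 87.3% of peaks, and with 1865 bp it was wider than 95.0% of them. Per base of width its place fell to above 65.0% of peaks. The nearest peaks were a weak one named Gm8580 (84.94) at 22.9 kb and one named Snrpf (178.51) at 50.4 kb.

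The membrane-anchored netrins had the lowest values of the family as a group, with 3 peaks of which 1 was above the median. Ntng1, which encodes netrin-G1, had 2 peaks on chromosome 3, the higher scoring 335.09 (109944979 to 109947157) and the lower 161.73 (109859978 to 109861097). They lay 83.9 kb apart, on either side of the list's median. The higher one was 2178 bp wide, and per base of width it stood above only 24.6% of peaks instead of 72.7%. Ntng2, which encodes netrin-G2, had 1 peak, at 29049768 to 29050688 of chromosome 2, whose score of 129.39 was above 26.0% of peaks. A peak of score 859.37 lay 56.1 kb from it under the name 6530402F18Rik. Likewise, the peak next to the higher Ntng1 peak, 105 kb away, was named Prmt6 and scored 827.34. Both of these stronger peaks were named for another gene, and the list gives no distance to either gene.

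The DCC family receptors differed in pattern: Neo1 had 1 strong peak and Dcc 5 scattered weaker ones. The Neo1 peak, named for the neogenin gene, scored 801.72, covered 58883288 to 58885140 of chromosome 9 and was rank 533 of the list. It scored above 97.6% of the 8749 coding genes with exactly 1 peak. It stood alone, with the next peaks at 175 kb (Hcn4) and 254 kb (Adpgk), and 91.3% of all peaks had a closer neighbour.

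Dcc, the gene of the main attractive netrin receptor, had peaks of score 239.74, 263.66, 145.41, 88.53 and 101.25 in order along chromosome 18. Both scores above the median belonged to the 2 leftmost peaks, from 71790282 to 71791526 and from 72666097 to 72666923. The remaining 3 started at 72736556, 73037173 and 73099551. The 5 peaks spanned 1309.7 kb, longer than 98.7% of the spans of the 3369 coding genes with more than 1 peak on a chromosome, whose median span was 35.0 kb. Between the first and the second lay 875 kb without any listed peak. The first was 849 kb from the closest peak on its other side, named Mbd2, so it had 0 other peaks within 500 kb, as did 0.851% of all peaks. The last 2 were 455 and 428 bp wide, and 1.53% of all peaks were narrower than 500 bp. Dcc combined many peaks with low scores: its highest score was above that of 12.4% of the 129 coding genes with exactly 5 peaks, whose median highest score was 420.

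**Figure D2:**
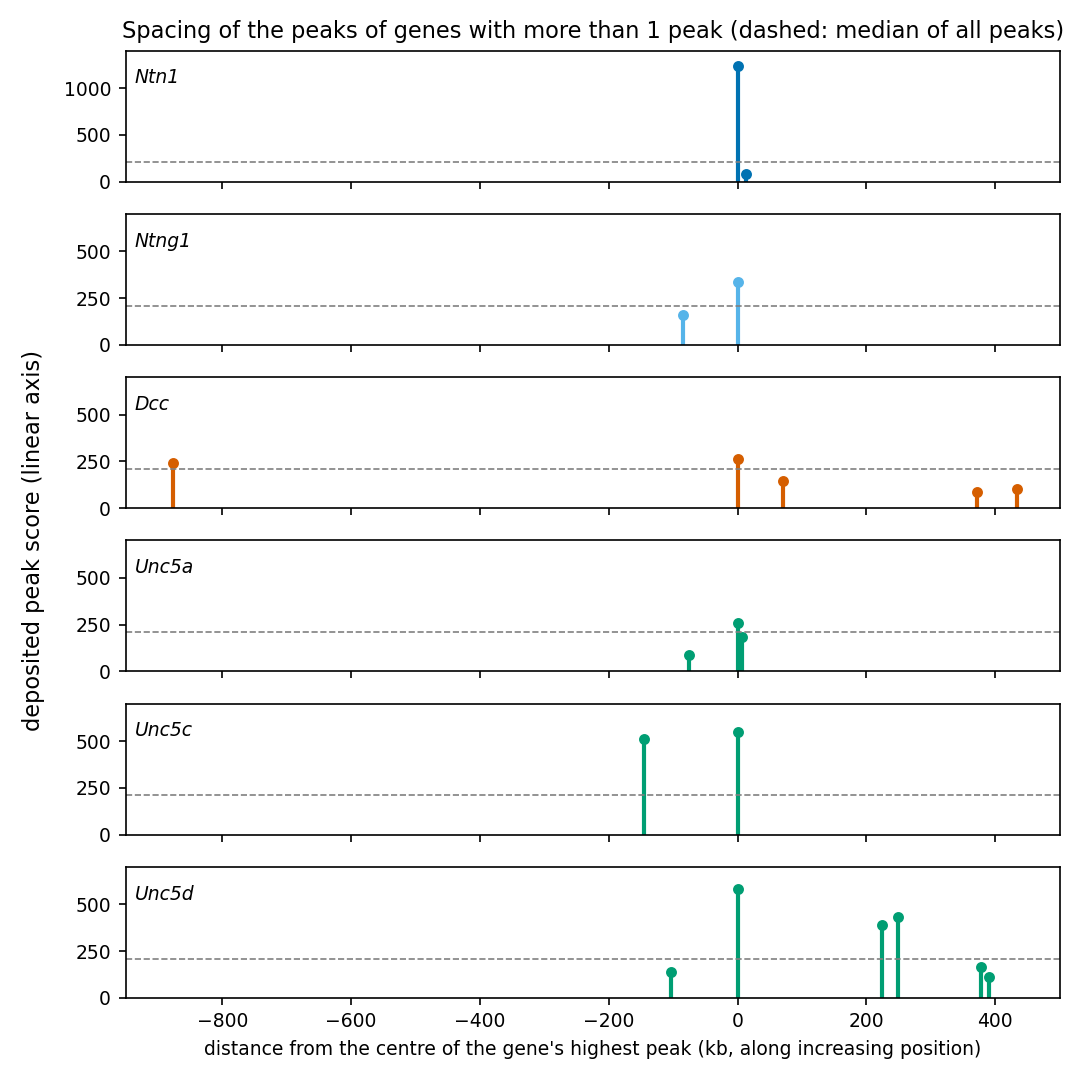
Peaks of the 6 genes with more than 1 peak, placed by distance in kb from the centre of the gene's highest peak; stem height is the deposited score on a linear axis, which reaches higher for Ntn1 than for the others, and the dashed line is the median of all peaks. Dcc peaks extend over 1309.7 kb and Unc5d peaks over 494 kb, while the 2 Ntn1 peaks lie 11.8 kb apart.

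The 4 UNC5 receptor genes held 12 of the 24 peaks, and 7 of the 12 were above the median. Unc5d had the most peaks of the family, 6, a number reached by 0.694% of coding genes. In order along chromosome 8 they scored 136.89, 580.71, 387.64, 434.22, 165.57 and 110.18, with starts at 29977383, 30080606, 30304342, 30329203, 30458535 and 30470441. The 3 peaks above the median were consecutive, the second to the fourth, flanked on both sides by weaker ones. The highest was separated from the next, to its right, by 222 kb, whereas the third and the fourth were 23.7 kb apart. The whole run spanned 494 kb, and no other peak was listed for 474 kb to its left and 580 kb to its right. Against the 71 coding genes with exactly 6 peaks, its highest score was above 59.2%.

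Unc5c had 2 peaks of nearly equal score, the only gene of the family with more than 1 peak and all of them above the median. They scored 510.03 and 549.94, a ratio of 1.08, on chromosome 3 from 141127606 to 141129070 and from 141272611 to 141273591. They lay 144 kb apart. The second was 980 bp wide, close to the list's median width of 986 bp, and per base of width it stood above 98.4% of peaks, the highest place of the family on that scale. Only 2 other peaks lay within 500 kb of either, and 2.93% of all peaks had fewer.

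Unc5b, a receptor gene also known for its role in endothelial cells, had 1 peak, at 60293361 to 60294616 of chromosome 10, which scored 522.38. It scored above 89.3% of peaks, and the nearest other peak, named Slc29a3, lay 50.0 kb away with a score of 131.42. Both Unc5b and Ntn4 are on this chromosome, whose median score was 210, so the highest scores of the 2 genes were 2.49 and 2.35 times that median.

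Unc5a had 3 peaks on chromosome 13, scoring 88.35, 261.18 and 183.67, from 54975623 to 54976426, from 55049617 to 55051764 and from 55057232 to 55058150. Only the middle one was above the median, and the last lay 5.47 kb from it. Per base of width the best Unc5a peak stood above 44.9% of peaks, so on that scale Unc5a, like Ntng1 and Ntng2, had no peak above the median. Its surroundings were the densest of the family, with 29 to 33 other peaks within 500 kb, against a median of 10 over all peaks. The nearest peaks of other names, Hk3 (87.16) at 39.3 kb and Tspan17 (80.19) at 79.4 kb, were near the lowest score of the list.

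The surroundings of the peaks ranged from 0 to 33 other peaks within 500 kb. Of the 24 peaks, 20 had fewer than 10 other peaks within 500 kb, 1, that of Unc5b, had exactly 10 and 3, all of Unc5a, had more. The peaks of Ntn4 and Ntng2, with 9 each, were close to that median. The nearest listed peak was farther than the median of all peaks, 29.6 kb, for 15 of the 24, and the median distance was 61.9 kb. For 19 peaks that nearest peak carried the same gene name. No peak of another name fell between the outermost peaks of any of the 6 genes with more than 1 peak. The matching shares over all listed peaks and over all genes with more than 1 peak were not computed. Whether either count is particular to these genes is therefore unknown. For 5 genes (Ntng1, Dcc, Neo1, Unc5b and Unc5c) the flanking peaks on both sides carried the names of the coding genes next to them in RefSeq. For Ntn4 and Unc5a this held on 1 side, and for Ntn1 and Unc5d on neither. Gene density and gene length were not compared, and their part in the numbers, spans and surroundings of the peaks was not tested. The gene positions at hand are in another build than the peaks.

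**Figure D3:**
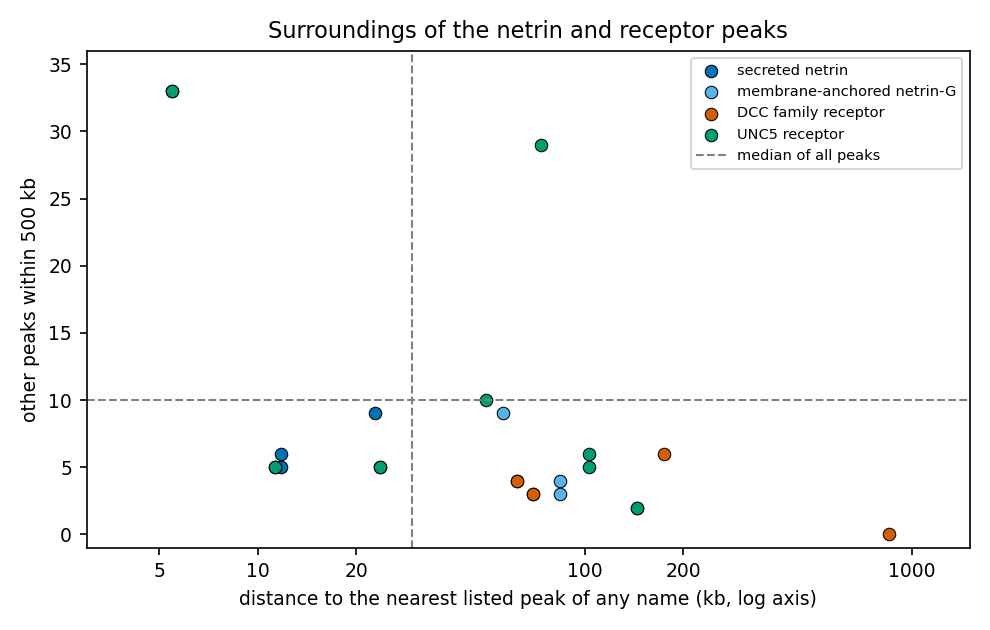
Each of the 24 peaks by its distance to the nearest listed peak of any name (kb, log axis) and the number of other peaks within 500 kb, coloured by role, with dashed lines at the medians of all peaks, 29.6 kb and 10; some points coincide. Most points lie below the horizontal line, the first Dcc peak is far to the right at 849 kb, and the Unc5a peaks lie at the top with 29 to 33 neighbours.

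Other genes of netrin signalling were looked up in the same list. Of 18 other netrins and binding partners of netrins or their receptors, 14 had a peak and 10 an above-median one. These are 77.8% and 55.6%, against 55.4% and 35.4% of all coding genes. Ntn3, a further secreted netrin, had peaks of score 323.95 and 148.26, and Ntn5 had 1 of 118.04. Adgrl2, Adgrl3 and Adgrl1 encode latrophilins, which can join UNC5 receptors through FLRT proteins, and had highest scores of 1390.72, 631.63 and 598.43. Lrrc4, which encodes the netrin-G2 ligand, had 1 peak of score 729.3, whereas Lrrc4c, which encodes the netrin-G1 ligand, had 7 peaks of which the highest scored 156.12. By highest score, Ntng2 was lower than Lrrc4 and Ntng1 higher than Lrrc4c. By number of peaks, Ntng1 with 2 had fewer than Lrrc4c. No score has an error, and the difference within either pair was not tested. Boc, Draxin and Dscaml1 were among the 4 genes with no listed peak.

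Of 23 genes that act below netrin receptors, 21 had a peak and 19 an above-median one. These are 91.3% and 82.6%, against 55.4% and 35.4% of all coding genes. The highest scores were 1258.33 for Trio, a guanine nucleotide exchange factor for Rac, 941.71 for Trim67 and 743.85 for Wasl, an activator of actin branching, followed by 660.51 for the ubiquitin ligase gene Siah2. The 23 genes had 28 peaks in all, or 1.22 per gene. More than 1 peak was listed for 6 of them, against 15.5% of all coding genes. Maged1 and Pak1 had none. Netrin and receptor genes had 2.4 peaks per gene and the other netrins and binding partners 2.39, and none of these differences was tested.

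The 3 other guidance families were Slit and Robo, EphA and ephrin-A, and class 3 semaphorin genes with their receptors. In that order, the shares with any peak were 90.0%, 92.9% and 69.2%, against 55.4% of all coding genes. Those with an above-median peak were 70%, 71.4% and 46.2%, against 35.4%. Of 10 Slit and Robo genes with their Srgap effectors, 9 had a peak and 7 an above-median one, and the highest score was 394.54 for Srgap2, then 344.45 for Robo1, 342.02 for Srgap1 and 324.79 for Robo3. Of these 10 genes, 1 had a peak in the upper quartile of the list, against 6 of the 10 netrin and receptor genes. The share over all coding genes was 19.2%. Of 14 EphA and ephrin-A genes, 13 had a peak, 10 an above-median one and 8 one in the upper quartile, led by Epha3 (938.71), Efna5 (743.8), Efna3 (582.89) and Epha5 (499.5), with 3.07 peaks per gene. Of 13 class 3 semaphorin, neuropilin and plexin-A genes, 9 had a peak, 6 an above-median one and 5 one in the upper quartile, led by Sema3c (1278.38), Plxna4 (700.29), Sema3f (669.38) and Plxna1 (393.05), while Nrp1, Plxna3 and Sema3a were among the 4 with none. The difference between families was not tested, since the lists were written with results of these data known.

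**Figure D4:**
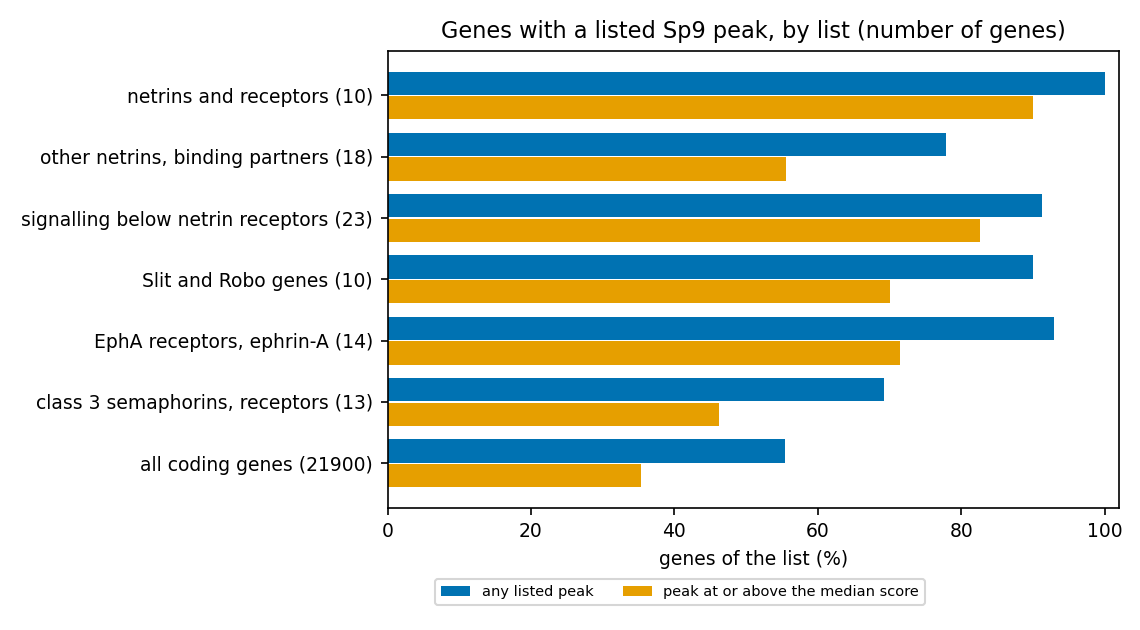
Percent of the genes of each list with any listed peak (blue) and with a peak at or above the median score (orange), with the number of genes in brackets; bars start at 0. The netrin and receptor genes reach 100% and 90.0%, and all coding genes 55.4% and 35.4%.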

How the data were processed

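Per the labels' protocols, fixation took 10 min in 1% formaldehyde, fragments after shearing measured 200 to 1000 bp, and sequencing gave pairs of 150-base reads. The submitters' processing notes name Bowtie2 2.2.4, MACS 1.4.2 and the build mm9, without roles or settings. The deposited score is 1 value per shared peak and has no stated unit. The sources used here state neither its formula, nor the rule for sharing, nor how peaks received gene names. The other deposited columns (positions and names) are printed as they stand, and whether starts count from 0 or 1 is not stated. Scores served to order and filter peaks inside this list and for nothing else, with Python 3.11.15 and pandas 2.3.3.

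The members and gene lists were chosen with earlier results of these data known, and no test was run, since 1 list has no replicate error and shows no pattern across samples. Names were matched to RefSeq (GRCm38.p6) by symbol, then by a synonym held by 1 gene; 13333 of 13383 matched. Gaps run from the end of a peak to the start of the next, and peaks within 500 kb are counted between centres. Named are all members, up to 4 genes per list with the highest scores, up to 3 without a peak, and flanking peaks; Ntn3, Ntn5 and Lrrc4c were named after their values were seen. Joins, ranks, name matches and motif searches were tested on simulated data. Alternatives were stricter scores, joined peaks, score per width and other backgrounds.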

Additional observations from a re-analysis of the deposited data

How the results depend on the processing

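All 10 genes kept a peak when synonyms were allowed and when unplaced sequences were left out; 9 kept one at or above the median score and 6 in the upper quartile. Of the 24 peaks, 13 and 9 remained under these score limits, 24 when rows of a gene were joined over gaps of up to 1 kb, and 23 over gaps of up to 10 kb, where a pair of Unc5a peaks merged. With score divided by width, 7 genes instead of 9 had an above-median peak. The median over the 10 genes of the share of peaks below the highest peak was 88.3%, against 84.5% by score divided by width and 83.4% among the highest peaks of linked coding genes. The median share of coding genes with fewer peaks was 84.5%, against 72.1% among coding genes with a peak and 89.2% with rows joined over 10 kb. The score limits and the joining of rows can only lower a number of peaks. On the scale of score divided by width, places moved both ways, up for Dcc (60.8 to 78.0%) and down for Ntng1 (72.7 to 24.6%), and the cause was not tested. Leaving out a library was not run, because the list holds no value per library. No paired analysis was possible because scores are not given by library. The unknown depth limits any statement that a gene has no peak.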
